A study of Brassica rapa with 8 samples.

Results

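In *B. rapa* accession Chiifu-401-42, 112 of 38200 gene models were higher in sample 2 than in sample 1 of both leaf and root. They were chosen by these differences: a gene was taken when its level was above 0 at the lower 95% bound in all 8 samples, and when log2(FPKM + 1) was at least 1 higher in leaf 2 than in leaf 1 and at least 1 higher in root 2 than in root 1. FPKM, fragments per kilobase of transcript and scaled to the mapped fragments of a sample, is a level per length of transcript. Of the 38200 gene models, 19532 had a lower bound above 0 in all 8 samples and could be chosen, and they serve as the background throughout. Bra041155, which also met the criteria, was left out. The samples were 2 of leaf and 2 of root, with 1 each of stem, flower, silique and callus, all of the same accession and without any treatment or genotype contrast. Leaf, root and stem came from plants of 7 weeks, siliques were taken 15 days after pollination, flowers came from blooming plants without the floral shoot, and callus came from tissue culture. The 2 samples of leaf, and likewise of root, were raised from separate batches of plants, so a difference between them holds the batch and the library as well as the plants. The 4 tissues with a single sample have no replicate. Whether the number 2 marks the same batch in leaf and in root is not given in the sources used here.

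Chiifu-401-42 is an inbred Chinese cabbage line, and *B. rapa* descends from an ancestor whose genome was triplicated, so many genes have near copies. By the paper's methods only uniquely mapped reads were used for levels. Reads that fit several copies equally well could then not be assigned to a member. In leafy plants, transcripts of ribosomal proteins, small secreted peptides, lipid transfer proteins and metallothioneins are among the short ones, whereas large enzymes and receptors come from long ones. A gene name table of another assembly held 1 of the 38200 identifiers and 0 of the 112 members. No member is therefore given a name, a function or a sequence here, and the tissue labels were not checked against marker genes. In whole tissue, fewer cells of a type and less RNA per cell cannot be told apart.

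The width of each deposited interval gave the number of fragments behind a value. Their sums were 8570059 in leaf 2 against 14151281 in leaf 1, 8600789 in root 2 against 14539841 in root 1, and 6757018 (silique) to 8600941 (flower) in the single samples. The samples numbered 1 were thus the deeper ones by these intervals, whereas the read statistics of the study list more reads for the samples numbered 2 and for stem. The sources thus differ on depth, and in stem the implied fragments numbered 8022478. The numbers used below are those of the table. Members rested on a median of 161 fragments in leaf 2 against 67.5 in leaf 1, on 220 in root 2 against 80.5 in root 1, and on 137 in callus, 174 in silique, 139 in flower and 46.5 in stem. In 15 members at least 1 sample had under 10 fragments by these intervals. Bra002720 and Bra001041 are not among them, as their intervals did not follow counting error. Both were nonetheless under 1 FPKM in root 1 and stem. Bra041155 alone held 6.44% of the summed FPKM in leaf 2 and 17.3% in callus. FPKM is scaled to mapped fragments, and how far this gene lowers other values there was not tested.

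The difference between the samples of an organ chose the members and is given as a description. The members were 57.1% of the 196 genes at least 1 higher in leaf 2 than in leaf 1, a list that was 1.0% of the 19532 genes that could be chosen. They were 57.7% of the 194 genes at least 1 higher in root 2 than in root 1, 0.993% of those genes. The members' leaf difference had a median of 1.59 and ran from 1.01 to 4.27, against a median of -0.29 over all genes expressed in all 8 samples. Their root difference had a median of 1.55 and ran from 1.01 to 5.74, against -0.25 over all such genes. In 64 members the leaf difference was the larger, and in 48 the root difference. Both differences were at least 2 in 21 members and at least 3 in 4. The 95% intervals of both samples were apart in both organs for 105 members and overlapped in at least 1 organ for 7. These intervals hold counting error only, except in Bra002720 and Bra001041, which are among the 105 and are described below. The choice of members fixes this count in part. No share over all genes was computed for it, so it shows nothing particular to the members. In the opposite direction, 222 genes were at least 1 lower in sample 2 of both organs. Across the 19532 genes, Pearson's r between the leaf and root differences was 0.71. Its points are genes of the same 4 libraries, not independent replicates.

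**Figure D1:**
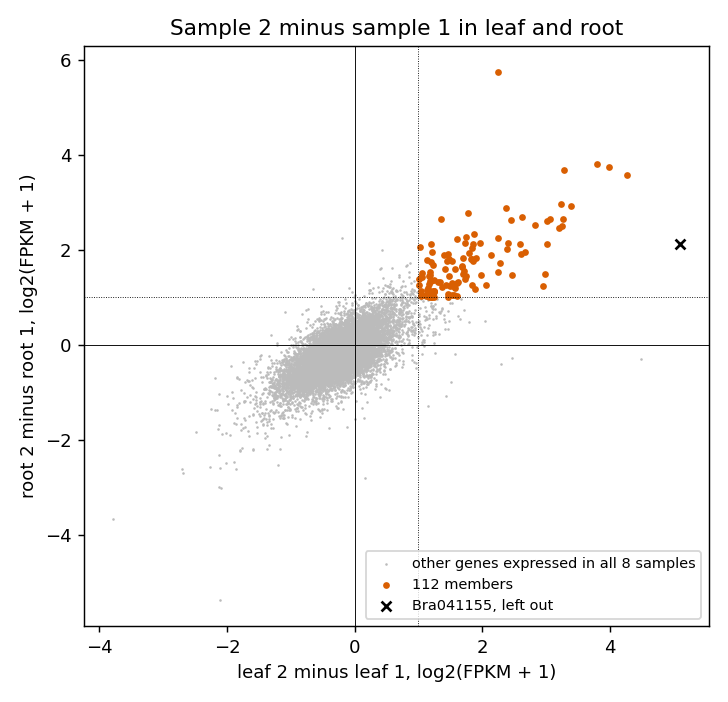
Each point is a gene expressed in all 8 samples, with leaf 2 minus leaf 1 on the horizontal axis and root 2 minus root 1 on the vertical axis, both in log2(FPKM + 1), and dotted lines at the limit of 1. The 112 members (orange) fill the upper right corner by their choice, and the cross is Bra041155, which was left out.

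Members just inside the limit were close to genes just outside it. Bra039578 had 173 FPKM in leaf 2 against 85.5 in leaf 1, and 232 in root 2 against 87.4 in root 1. Its smaller difference was 1.01, as it was for Bra030305 and Bra010167. Outside the limit, Bra012651 had 14.2 FPKM in leaf 2 against 6.66 in leaf 1, and 39.4 in root 2 against 19.4 in root 1, a smaller difference of 0.98. Bra007589 and Bra012004 were also at 0.98. The limit therefore divides a continuous range of differences, without a gap between members and other genes.

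The 10 members with the largest value of the smaller difference are given first. Bra040051 (Scaffold000186, 154807 to 155605) had 153 FPKM in leaf 2 against 10.1 in leaf 1, 175 in root 2 against 11.7 in root 1, and 104 in callus, 155 in silique, 109 in flower and 17.3 in stem. Bra041087 (Scaffold000493, 3571 to 3902) had 203 FPKM in leaf 2 against 11.9 in leaf 1, 269.5 in root 2 against 19.1 in root 1, and 178 in callus, 299.8 in silique, 241 in flower and 24.9 in stem. In both genes, leaf 1, root 1 and stem were low, and the other 5 samples lay above them without overlap. Bra010984 (Scaffold000010, 4189099 to 4189771) had 405 FPKM in leaf 2 against 20.1 in leaf 1, 790.1 in root 2 against 65.4 in root 1, and 966 in callus, 111 in silique, 1180.0 in flower and 23.4 in stem. This gene had the highest leaf difference of all members, 4.27, and stem again lay with leaf 1 and root 1. Bra029873 (Scaffold000067, 1291361 to 1291884) had 47.5 FPKM in leaf 2 against 3.99 in leaf 1, 108 in root 2 against 7.50 in root 1, and 52.4 in callus, 133 in silique, 54.1 in flower and 7.80 in stem. Bra001351 (Scaffold000001, 7192165 to 7193124) had 146 FPKM in leaf 2 against 14.5 in leaf 1, 136 in root 2 against 16.6 in root 1, and 165 in callus, 299 in silique, 242 in flower and 9.37 in stem. In both, leaf 1, root 1 and stem were again the 3 lowest samples.

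Others of these 10 differed in single tissues. Bra016673 (Scaffold000020, 1879582 to 1880532) had 44.7 FPKM in leaf 2 against 3.35 in leaf 1, 82.5 in root 2 against 10.04 in root 1, and 5.96 in callus, 151 in silique, 53.5 in flower and 5.31 in stem. Callus was here among the low samples. Bra015252 (Scaffold000018, 875968 to 876364) had 40.5 FPKM in leaf 2 against 3.96 in leaf 1, 39.4 in root 2 against 5.48 in root 1, and 238 in callus, 23.4 in silique, 36.5 in flower and 7.09 in stem. Callus was here far above every other sample. Bra026218 (Scaffold000050, 1596153 to 1596783) had 48.7 FPKM in leaf 2 against 7.09 in leaf 1, 79.0 in root 2 against 11.4 in root 1, and 53.0 in callus, 91.1 in silique, 47.9 in flower and 14.8 in stem. It kept leaf 1, root 1 and stem as the lowest samples. In a pair of these 10, flower and silique were within or below the range of leaf 1 and root 1. Bra039434 (Scaffold000165, 111386 to 111933) had 195 FPKM in leaf 2 against 19.3 in leaf 1, 159 in root 2 against 24.7 in root 1, and 121 in callus, 21.4 in silique, 12.96 in flower and 25.8 in stem. Bra024053 (Scaffold000043, 716529 to 717004) had 459 FPKM in leaf 2 against 55.7 in leaf 1, 302 in root 2 against 48.6 in root 1, and 106 in callus, 29.3 in silique, 30.7 in flower and 67.2 in stem. Leaf 2, root 2 and callus were the 3 highest samples in both.

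**Figure D2:**
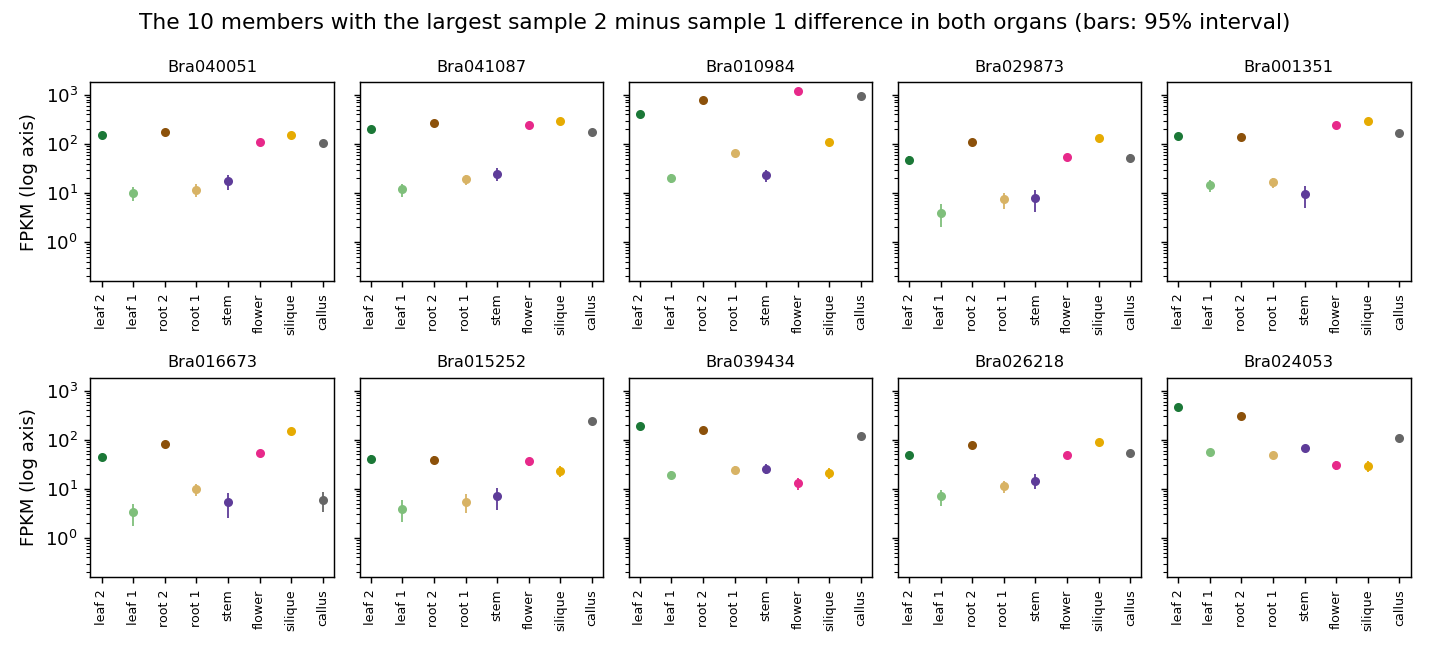
FPKM on a log axis of the 10 members with the largest value of the smaller difference, 1 point per sample with its deposited 95% interval (vertical bars, counting error only). In 8 of the 10 stem lies below flower and silique, and in Bra039434 and Bra024053 flower and silique are the low tissues.

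A pair of members, chosen after their values were seen, had intervals unlike those of the others. Bra002720 had 283 FPKM in leaf 2 against 58.8 in leaf 1, 78.0 in root 2 against 0.481 in root 1, and 274 in callus, 1.27 in silique, 6.07 in flower and 0.0293 in stem. Bra001041 had 1.41 FPKM in leaf 2 against 0.0514 in leaf 1, 3.57 in root 2 against 0.0427 in root 1, and 3.84 in callus, 3.07 in silique, 3.09 in flower and 0.206 in stem. Their interval widths did not follow counting error, since the fragments they implied per FPKM differed between samples by far more than in the other 110 members. No fold change is given for them, though both stay in the counts, medians and ranges over all members. Their place in the list rests on intervals of another kind.

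The members spanned a wide range of levels. In stem the lowest was at 0.0293 (Bra002720) and the highest at 1161 FPKM, and in callus they lay between 1.16 and 9909 FPKM. Bra021187 (Scaffold000033, 793299 to 795537), the highest by its mean over samples, had 762 FPKM in leaf 2 against 339 in leaf 1, 1406 in root 2 against 513 in root 1, and 9909 in callus, 1269 in silique, 488 in flower and 575 in stem. Bra028446 (Scaffold000062, 370329 to 370767) had 345 FPKM in leaf 2 against 91.4 in leaf 1, 4455 in root 2 against 1259 in root 1, and 2436 in callus, 55.1 in silique, 1444 in flower and 1161 in stem. Callus dominated the level of the first gene, and both root samples lay above both leaf samples in the other. Bra005731 (Scaffold000005, 334004 to 334713) had 44.5 FPKM in leaf 2 against 7.83 in leaf 1, 85.8 in root 2 against 10.8 in root 1, and 2934 in callus, 356 in silique, 21.2 in flower and 16.3 in stem. Bra000884 (Scaffold000001, 4925323 to 4925882) had 199 FPKM in leaf 2 against 86.6 in leaf 1, 716 in root 2 against 282 in root 1, and 819.5 in callus, 30.9 in silique, 238 in flower and 52.1 in stem. Both genes were highest in callus, which for Bra005731 was 8.25-fold above silique, its next sample, and for Bra000884 was followed by root 2. Bra010984, described above, completes the 5 members with the highest mean.

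As a group, the members were near the level of other genes in leaf 1, root 1 and stem, and well above it elsewhere. Their median FPKM was 40.2 in leaf 2 (7.89 over all genes expressed in all 8 samples), 10.8 in leaf 1 (10.1), 44.9 in root 2 (10.02) and 11.9 in root 1 (12.4). It was 32.2 in callus (8.05), 45.6 in silique (9.48), 30.0 in flower (9.84) and 14.1 in stem (13.1). The leaf and root values follow from the choice of the members, whereas stem, flower, silique and callus entered it only by the lower bound. The 112 genes held 1.28% of the summed FPKM in leaf 2 against 0.387% in leaf 1, 2.38% in root 2 against 0.667% in root 1, and 3.08% in callus, 1.41% in silique, 1.39% in flower and 0.630% in stem. In this measure, too, stem lay with leaf 1 and root 1.

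**Figure D3:**
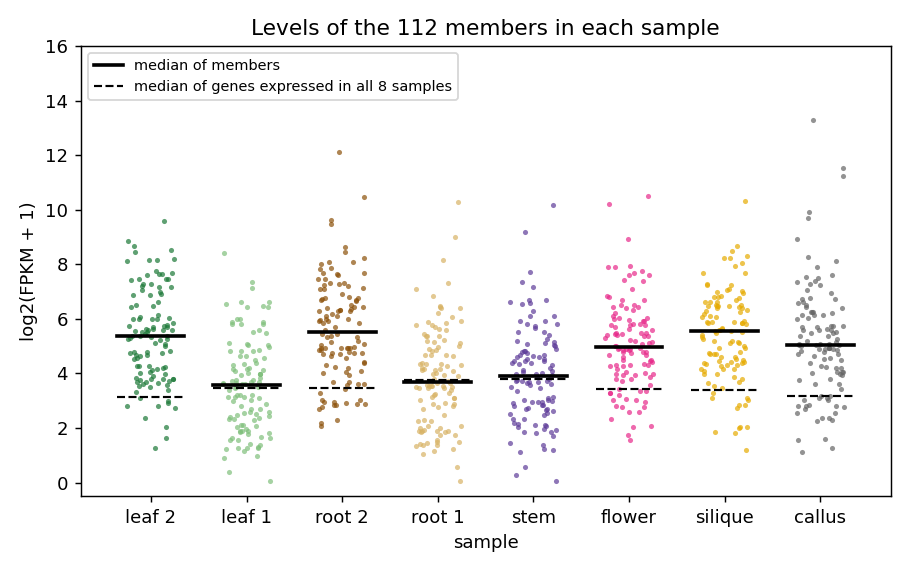
Each point is 1 of the 112 members, with log2(FPKM + 1) on the vertical axis and the 8 samples along the horizontal axis. Solid bars (median of members) lie near the dashed bars (median of all 19532 genes expressed in all 8 samples) in leaf 1, root 1 and stem and above them in leaf 2, root 2, flower, silique and callus.

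The place of stem was examined after this had been seen, over the 4 tissues whose levels the choice of members did not compare. Stem was the lowest of stem, flower, silique and callus in 68 of the 112 members (60.7%), against 16.4% of all genes expressed in all 8 samples. In 48 of the 112 members, the 95% interval of stem was also below those of the other 3, against 7.74% of all genes. Callus was the lowest in 22 members (42.7% of all genes), flower in 13 (18.3%) and silique in 9 (22.6%). Stem was the highest in 3 members, against 48.0% of all genes, while silique was the highest in 60 (17.7%), callus in 31 (16.9%) and flower in 18 (17.4%). Stem minus the mean of flower, silique and callus had a median of -1.32 in the members (quartiles -2.04 and -0.35) and of 0.51 over all genes (-0.22 and 1.21), on the log2(FPKM + 1) scale. The difference was thus of opposite sign in the members. With 1 sample of stem, tissue and library cannot be told apart, and this is a comparison of single libraries without a test.

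**Figure D4:**
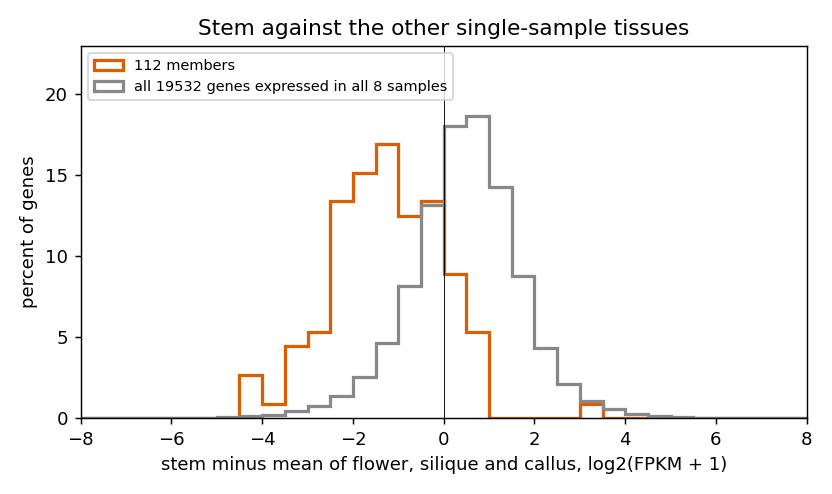
Stem minus the mean of flower, silique and callus in log2(FPKM + 1) on the horizontal axis, in steps of 0.5, with the percent of genes on the vertical axis, for the 112 members (orange) and all 19532 genes expressed in all 8 samples (grey). The members lie mostly below 0, with a median of -1.32, and all genes mostly above it, with a median of 0.51.

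The same count can be split by the differences that chose the members, which is a description. Among the 21 members with both differences at least 2, stem was the lowest of the 4 tissues in 17, with a median of stem minus the mean of the other 3 of -2.40. Among the other 91 it was the lowest in 51. Stem was nearer to sample 1 than to sample 2 of leaf and root in 90 members and nearer to sample 2 in 22, where 33.8% of all genes were nearer to sample 2. Flower was nearer to sample 2 in 76 members (52.3% of all genes), silique in 88 (55.5%) and callus in 77 (59.3%). In the 222 genes of the opposite direction, stem was nearer to sample 1 in 188. The choice set samples 1 and 2 far apart in these genes, so the shares over all genes are no matched baseline for these counts. Leaf 1, root 1 and stem were the 3 lowest of the 8 samples in 58 members, against 0.768% of all genes, a count that the choice of members fixes in part. Whether stem shared a batch or a library preparation with any leaf or root sample is not given in the sources used here.

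The members were short gene models, a property that the choice did not use. The paper states that its gene models came from open reading frames alone, without defined untranslated regions. The lengths below may therefore fall short of whole transcripts. The fragments that a value of 1 FPKM implied, set against those of the median gene in the same sample, give the relative length of a gene model as it was counted. This relative length had a median of 0.256 in the members (quartiles 0.201 and 0.383), against 1 in all genes expressed in all 8 samples by construction. Of the 112 members, 87 were in the shortest class of gene models, the lowest 10% of all genes by relative length, and 12 were in the next 10%. The loci of the members, from start to end with introns, had a median of 875.5 bases against 2123 over all genes, and ran from 326 to 10245 bases. Loci under 1000 bases were found for 71 members, against 10.7% of all genes. Bra020305 was among the shortest by the counted length (0.14 of the median gene), and Bra006328 was among the longest members, at 1.42, both picked after their values were seen. For 110 members the relative length was the same within 10% in all 8 samples. It comes from the deposited values and their intervals alone, so it cannot show whether the transcripts themselves differed between samples.

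The difference between samples also moved with length over all genes, within a range far below the limit of 1. In the shortest 10% the median of leaf 2 minus leaf 1 was -0.08 and that of root 2 minus root 1 was 0.06, against -0.30 and -0.35 in the longest 10%. The genes of the opposite direction were also frequent in the shortest 10%, with 83 of 222. Most short gene models were no members, since members made up 4.45% of the shortest 10%. Within that class, stem was the lowest of the 4 tissues in 57 of 87 members (65.5%), with a median of stem minus the mean of the other 3 of -1.40, against 391 of the other 1867 genes (20.9%), with a median of 0.43. Among the 25 members outside the shortest 10% it was the lowest in 11 (44%), with a median of -1.17, against 2747 of the other 17553 genes (15.6%), with a median of 0.52. By implied fragments leaf 1 and root 1 were deeper than the other samples and stem was not, and the part of depth in these differences was not tested.

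**Figure D5:**
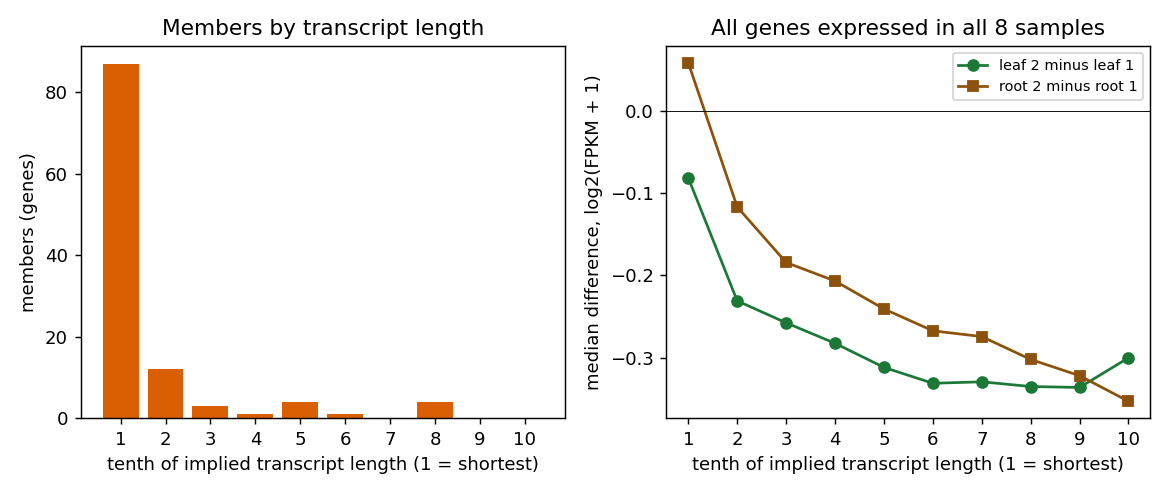
Left, the number of members in each 10% class of relative length of the gene model as counted (1 is the shortest), with 87 of 112 in the first class. Right, the median of leaf 2 minus leaf 1 (circles) and root 2 minus root 1 (squares) over all genes of each class in log2(FPKM + 1), which in the shortest 10% is -0.08 in leaf and 0.06 in root.

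With leaf and root averaged over their samples, silique was the highest of the 6 tissues in 54 members (48.2%, against 13.4% of all genes expressed in all 8 samples) and callus in 23 (20.5%, against 13%). Flower was the highest in 14 members, root in 10, leaf in 9 and stem in 2, the last against 32.8% of all genes. Stem was the lowest in 58 members (51.8%, against 7.35%), callus in 20 (33.9% of all genes), leaf in 14 (21.9%), flower in 8 (12.6%), silique in 6 (15.5%) and root in 6 (8.73%). The tissue specificity index T, which is 0 for even levels and 1 for a gene of a single tissue, had a median of 0.559 in the members and 0.545 over all genes. Most members were thus highest in silique or callus, with a median specificity close to that of all genes.

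The members with the highest level in each tissue differed in how far they stood out. Among those highest in silique, Bra033875 had 115 FPKM in leaf 2 against 43.9 in leaf 1, 202 in root 2 against 86.1 in root 1, and 185 in callus, 408 in silique, 202 in flower and 143 in stem. Bra032586 had 371 FPKM in leaf 2 against 163 in leaf 1, 400.4 in root 2 against 137 in root 1, and 131 in callus, 313 in silique, 196 in flower and 211 in stem. Silique led clearly in the first, whereas in Bra032586 leaf 2 and root 2 were above silique and only the means of leaf and root were below it. The members highest in stem were Bra037667 and Bra005466. Bra037667 had 89.8 FPKM in leaf 2 against 32.2 in leaf 1, 141 in root 2 against 40.6 in root 1, and 32.3 in callus, 2.54 in silique, 9.19 in flower and 95.7 in stem. Bra005466 had 5.66 FPKM in leaf 2 against 1.96 in leaf 1, 6.41 in root 2 against 2.67 in root 1, and 1.43 in callus, 2.58 in silique, 3.21 in flower and 5.42 in stem. In neither was stem above all 4 leaf and root samples. The highest leaf member besides Bra024053 was Bra002411, with 285 FPKM in leaf 2 against 139 in leaf 1, 229 in root 2 against 112 in root 1, and 45.3 in callus, 88.8 in silique, 67.5 in flower and 103 in stem, and every leaf and root sample lay above the 4 other tissues.

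Several members, chosen after their values were seen, were at least 1 higher on the log2 scale in 1 tissue than in every other sample. In callus these were 5 members, against 2.94% of all genes. They were Bra005731, Bra021187 (7.05-fold above its next sample), Bra015252 (5.88-fold), Bra035230 (5.56-fold) and Bra009783 (2.12-fold). In silique they were also 5, against 1.94%. Bra020305 had 24.5 FPKM in leaf 2 against 8.27 in leaf 1, 32.5 in root 2 against 15.0 in root 1, and 5.88 in callus, 204 in silique, 14.2 in flower and 12.8 in stem, so that silique was 6.27-fold above its next sample. Bra033664 had 135 FPKM in silique, 4.69-fold above flower, and Bra036702, Bra015399 and Bra033875 followed with 2.02-fold to 2.30-fold. In flower it was Bra006328, with 42.1 FPKM, 2.27-fold above silique (2.39% of all genes), and in stem 0 members, against 1.88%.

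Set against the range of the 4 leaf and root samples, which the choice of members widens, stem was above all 4 in 0 members (38.7% of all genes) and below all 4 in 20 (11.6%). Flower was above all 4 in 26 members (23.8% of all genes) and below in 9 (27.7%). Silique was above all 4 in 45 members (24.3%) and below in 8 (28.9%). Callus was above all 4 in 28 members (20.6%) and below in 14 (40.6%). Without root 2, these counts were 6 above for stem, 49 for flower, 67 for silique and 50 for callus. Without leaf 1, they were 41 below for stem, 14 for flower, 11 for silique and 22 for callus. Without a sample the range of any gene narrows or stays the same, and no share over all genes was computed for these counts. Leaving out leaf 2 or root 1 moved none of them by over 1.5 times, and stem was then above in 0 and below in 20 without leaf 2 and in 28 without root 1.

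Leaf and root, the tissues with 2 samples each, were compared with limma on log2(FPKM + 1) over 25725 genes, with Benjamini-Hochberg adjustment and a threshold of 0.05. Of the 112 members 7 were higher in leaf (16.3% of all genes tested) and 6 were lower (34.6%), with 7 and 7 at an unadjusted p under 0.05, and the median of leaf minus root was -0.43 in the members and -0.47 over all genes. The percentages are of calls after adjustment, and no share over all genes was computed for the unadjusted counts. The spread within an organ, which chose the members, also enters the error of this test, so that their counts were kept low by the choice itself. Bra024425 (Scaffold000044, 1272594 to 1273135) had 153 FPKM in leaf 2 and 55.1 in leaf 1, against 5.84 in root 2 and 2.38 in root 1, with 21.5 in callus, 11.7 in silique, 214 in flower and 41.6 in stem. Leaf was higher than root by 4.27 on the log2 scale (standard error 0.54, limma adjusted p = 0.000697), without overlap of the samples. Bra039347 (Scaffold000164, 40539 to 41393) had 173 FPKM in leaf 2 and 30.5 in leaf 1, against 7.15 in root 2 and 1.96 in root 1, a difference of 3.91 (standard error 0.82, limma adjusted p = 0.00708). Bra005709 (Scaffold000005, 224666 to 225283) had 47.4 FPKM in leaf 2 and 14.8 in leaf 1, against 3.21 in root 2 and 1.07 in root 1, a difference of 3.23 (standard error 0.58, limma adjusted p = 0.00347). The other 4 higher in leaf were Bra041142, Bra013173, Bra010167 and Bra015721, with differences between 1.88 and 3.06.

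Lower in leaf than in root were Bra009783, Bra028446, Bra003780, Bra002655, Bra019453 and Bra000884. Bra009783 (Scaffold000009, 859028 to 859474) had 10.5 FPKM in leaf 2 and 2.74 in leaf 1, against 146 in root 2 and 58.2 in root 1, a difference of -3.84 (standard error 0.62, limma adjusted p = 0.00213). It was higher still in callus, at 310.1 FPKM. Bra028446, whose levels are given above, differed by -3.73 (standard error 0.77, limma adjusted p = 0.00671). Bra003780 (Scaffold000003, 3575529 to 3576259) had 45.9 FPKM in leaf 2 and 18.7 in leaf 1, against 347 in root 2 and 158 in root 1, a difference of -2.95 (standard error 0.52, limma adjusted p = 0.00316). Its level was 1.97 FPKM in flower and 30.7 to 46.5 FPKM in stem, callus and silique. The remaining 3 differed by -1.77 to -2.71.

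The difference of the members between the organs turned on which sample was left out, a shift whose direction the choice of members fixes. Without leaf 1 the median of leaf minus root was 0.42 in the members, against -0.68 over all genes tested. Without root 2 it was 0.42, against -0.46. Without leaf 2 it was -1.17, against -0.38, and without root 1 it was -1.25, against -0.22. Each such fit set a lone sample of 1 organ against both samples of the other, and assumed that it varied like them. Both leaf samples lay above both root samples in 7 members (20.8% of all genes expressed in all 8 samples) and both root samples above both leaf samples in 7 (50.4%). Within the same sample number, leaf was above root for both numbers in 25 members (27.1%) and root above leaf in 68 (63.6%). The p-values measure only the spread between 2 batches of plants in each organ.

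Each single-sample tissue was set against the mean of leaf and root in a limma fit over 27588 genes. Its spread was taken from leaf and root. That spread chose the members, so their counts of calls were again kept low by the choice itself. The percentages are of calls after adjustment, and the unadjusted counts have no share over all genes beside them. In stem 0 members were higher (9.56% of all genes tested), with 0 at an unadjusted p under 0.05, and 1 was lower (7.58%), with 3 unadjusted. The lower one was Bra010167, which had 6.63 FPKM in stem, against 172 in leaf 2, 85.0 in leaf 1, 35.2 in root 2 and 14.1 in root 1, a difference of -2.81 (standard error 0.62, limma adjusted p = 0.0459). In flower 1 member was higher (15.2%) and 1 lower (20.3%), namely Bra024425, by 3.34, and Bra003780, by -4.83. The median difference of the members was -0.59 in stem, against 0.24 over all genes, and 0.59 in flower, against -0.14. After scaling each sample to the same upper quartile, the stem medians were -0.86 in the members and -0.01 over all genes, and 3202 of all genes were called higher and 4237 lower in stem, against 2638 and 2090 without it.

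In silique 3 members were higher (14.2%) and 4 lower (24.7%), with 8 and 4 unadjusted, again without a share over all genes. The higher ones were Bra020305, by 3.44 (standard error 0.69, limma adjusted p = 0.0178), Bra033664, by 3.01, and Bra011224, by 2.13. The lower ones were Bra037667, by -4.20 (standard error 0.86, limma adjusted p = 0.0186), Bra010167, Bra028446 and Bra000884. In callus 5 members were higher (16.3%) and 2 lower (28.0%), with 9 and 3 unadjusted, likewise without such a share. The higher ones were Bra005731, by 6.86 (standard error 1.37, limma adjusted p = 0.0169), Bra021187, by 3.91, Bra035230, by 3.88, Bra009783, by 3.65, and Bra005709, by 2.52. The lower ones were Bra010167, by -3.39, and Bra002411, by -1.96. The median difference of the members was 0.95 in silique, against -0.20 over all genes, and 0.63 in callus, against -0.33.

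These calls rested on single libraries, and their low number follows in part from the choice of members, as said above. Without leaf 1, the members' median difference was 0.16 in callus (-0.26 over all genes), 0.54 in silique (-0.12) and 0.16 in flower (-0.07). Without leaf 2 it was 1.02 in callus (-0.38), 1.42 in silique (-0.26) and 0.99 in flower (-0.20). Without root 1 it was 0.15 in callus (-0.25), 0.56 in silique (-0.11) and 0.21 in flower (-0.05). Without root 2 it was 1.06 in callus (-0.37), 1.35 in silique (-0.23) and 0.95 in flower (-0.17). For stem, the 4 fits that left out a sample called few genes or none, so the lack of called members shows nothing about them. The median stem difference of the members was -1.01 without leaf 1, -0.14 without leaf 2, -1.02 without root 1 and -0.16 without root 2. Over all genes tested it was 0.30, 0.18, 0.31 and 0.21. The choice of members fixes the direction of their shift between these fits.

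The members were scattered over the genome. They lay on 70 of the 423 scaffolds of the table, with at most 7 on a scaffold, a number reached on 2 of them. A single pair lay within 20000 bases, Bra002520 and Bra002522 on Scaffold000002, with 4087 bases and 1 gene between them. Bra002520 (3729227 to 3729823) had 54.0 FPKM in leaf 2 against 23.96 in leaf 1, 107 in root 2 against 47.2 in root 1, and 27.8 in callus, 75.3 in silique, 78.3 in flower and 44.6 in stem. Bra002522 (3733910 to 3734889) had 176 FPKM in leaf 2 against 58.6 in leaf 1, 257 in root 2 against 84.0 in root 1, and 96.6 in callus, 88.2 in silique, 115 in flower and 49.5 in stem. Stem lay below leaf 1 and root 1 in the second gene and between them in the first.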

How the data were processed

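The authors deposited FPKM values and their 95% bounds, for 38200 gene models in 8 samples. Reads had been trimmed and filtered, and were mapped by TopHat, for which the submitters' processing notes give version 1.0.13 and the paper's methods a later one. Cufflinks then estimated levels, by the paper's methods with reads of a single position only. The methods name a *B. rapa* genome release of the BRAD database, but no source states which run or build made this table, so scaffold coordinates are printed as deposited. FPKM holds no read counts, so a pseudocount of 1 was added and log2 values were used, which understates the change of low genes. Implied fragments are the square of 2 times FPKM over the distance to the upper bound, and cover counting error only. In 2 members they did not give the same length in all samples, and sums over genes leave out such values.

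limma 3.58.1 in R 4.3.3 (eBayes with trend) tested genes that reached an FPKM of 1 in 2 or more samples of a fit, with Benjamini-Hochberg adjustment at 0.05, and was tested on simulated data. Other values came from Python 3.11.15, numpy 2.4.6, pandas 2.3.3 and matplotlib 3.10.9. T was computed over 6 tissues from FPKM.

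The members, lists and tests were chosen with earlier results of these data known. Named members were the 10 with the largest smaller difference, the 5 with the highest mean FPKM, the 3 with the largest called leaf to root difference in each direction, the 2 with the highest FPKM among those highest in each tissue, the 3 on either side of the limit, and pairs within 20000 bases. Any other member is named for a call, or is said to have been chosen after its values were seen. Alternatives covered pseudocounts, limits, filters, scaling, intervals, a replicate block and leaving out samples.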

Additional observations from a re-analysis of the deposited data

How the results depend on the processing

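The number of members was 392 with a limit of 0.5 and 45 with 1.5, 191 after scaling each sample to the same upper quartile, and 199 with differences centred on their median. All 112 were among the lists of 392, 191 and 199 genes, and it was 140 without a pseudocount. Membership could not be recomputed without a replicate. Of the alternatives, 167 values stayed near the reported ones and 95 moved, among them those below.

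Counts of stem as the lowest of stem, flower, silique and callus (68) were 83 after upper-quartile scaling, 48 with 95% intervals apart and 64 among the 105 members with intervals apart in both organs, and leaf 1, root 1 and stem were the 3 lowest in 71 and 56 under that scaling and among those members. By locus length, 70 members were in the shortest 10%. These alternatives were chosen after seeing the data.

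Beyond the 95% intervals of all 4 leaf and root samples, stem was below in 7 members (3.87% of all genes expressed in all 8 samples), flower above in 9 (13.7%) and below in 5 (15.5%), silique above in 26 (13.1%), and callus above in 13 (13.2%) and below in 6 (24.5%). With upper-quartile scaling callus was below in 9. Without 1 leaf or root sample, these counts were 0 to 6 above and 20 to 41 below for stem, 26 to 49 and 9 to 14 for flower, 45 to 67 and 8 to 11 for silique, and 28 to 50 and 14 to 22 for callus. No share over all genes was computed for the counts without a sample or with that scaling.

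Sample numbers are shared by leaf and root in the labels, but nothing states that a number marks a shared batch, and there are only 2 pairs. The leaf and root differences correlated at 0.71 over genes. A replicate block for the number removes the part of these differences that both organs share. Members were chosen by these differences, and how far the choice itself moves their counts under the block was not tested. Over all 25725 genes tested under the block, 5718 were called higher in leaf than in root and 14109 lower. Over 27588 genes, the calls were 10332 higher and 5413 lower (stem), 7261 and 9685 (flower), 6861 and 10650 (silique), and 6836 and 12009 (callus). With the number as a replicate block, leaf against root called 19827 genes (17 members higher, 58 lower), stem 15745 (7 and 55), flower 16946 (59 and 14), silique 17511 (77 and 14) and callus 18845 (57 and 23), where the single samples took the middle of both blocks.

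Without 1 sample, leaf against root called 7487 to 11429 genes, with 7 to 30 members higher and 6 to 70 lower. Stem called 0 to 703 genes, and 0 members either way. Flower called 4524 to 5128 (0 to 1 members higher, 1 lower), silique 5891 to 6408 (0 to 1 and 0 to 2) and callus 5408 to 6418 (0 to 2 and 0 to 1). Stem called 2839 genes without a filter and 7439 with upper-quartile scaling, against 4728 in the fit reported, and 0 members lower under either or with a pseudocount of 0.1. Without a filter, no member was higher in flower (0), and silique and callus had 0 higher and 0 lower. With FPKM of at least 5, flower had 4 higher and 2 lower, silique 7 higher and callus 9 higher. With upper-quartile scaling, silique had 1 higher and 2 lower and callus 1 lower, and callus had 1 lower with a pseudocount of 0.1. The cause of the changes with filter, scaling and pseudocount was not tested. Fragments limit the low values, as 15 members had under 10 in a sample by their intervals.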
